A study of Mus musculus with 119 samples.

Results

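Bone marrow–derived macrophages (BMDMs) that received the MKK1/2 inhibitor PD0325901 before lipopolysaccharide (LPS) were compared with BMDMs that received LPS alone, both after 1 h with LPS. The comparison was defined by the library labels and held 12 of the 119 RNA-seq libraries of the series, with 6 in each group. All 12 were labelled WT, of strain C57BL/6(NIMR), and carried no engineered allele. The PD0325901 group was exposed to the drug at 0.1 µM for 10 min before LPS was added, both groups received LPS at 100 ng/ml, and the untreated group was stimulated without an inhibitor or its solvent. Cells of both groups had been grown from bone marrow in L-cell conditioned medium and kept overnight in 1% FBS, and an age of the mice was not used here. The question addressed was which early LPS-responsive mRNAs depend on activation of ERK1/2. The libraries used beside these 12 were WT BMDMs without LPS (6 libraries), WT with LPS for 0.5 h (6) or 2 h (4), PD0325901 followed by LPS for 0.5 h (6), and cells without LPS that received DMSO for 10 min (3) or PD0325901 for 10, 40 or 70 min (3 each). For direct comparisons at 1 h of LPS, libraries of Map3k8 D270A BMDMs (6), which express kinase-inactive TPL-2, and of WT BMDMs given the RSK inhibitor RSKi47 at 2 µM (4) were used.

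LPS is sensed by TLR4, which activates the IκB kinase complex. That complex phosphorylates NF-κB1 p105, and proteolysis of p105 releases the kinase TPL-2 (the product of *Map3k8*) to phosphorylate MKK1/2, which in turn activate ERK1/2. Active ERK1/2 phosphorylates ternary complex factors, ETS-family proteins that bind promoters together with the serum response factor SRF, and so drives immediate early genes such as *Egr1* and *Fos*. The FOS and JUN proteins in turn form AP-1, a dimeric factor that acts on cytokine genes, and ERK1/2 signaling also induces its own inhibitors, among them the dual-specificity phosphatases and the Sprouty proteins. PD0325901 is an allosteric inhibitor of MKK1/2, and RSK1/2 are kinases downstream of ERK1/2.

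The design limits what the comparison can separate. The labels place the 6 PD0325901 libraries in one experiment and the 6 untreated libraries in another, and no DMSO library with LPS was analyzed here, so the inhibitor and the experiment cannot be told apart in the comparison itself. The offset between the experiments was therefore measured without LPS, in DMSO-treated against untreated WT cells. Its value is given beside some of the results and is set against the called genes below. The labels do not say that the numbered libraries came from separate cultures or mice, so p-values measure the spread between libraries only. That spread was pooled over all groups of the series. A fit of the 12 libraries alone called 48 genes lower and 38 higher. Its adjusted p was 0.00122 for *Il23a* (1.59e-15 in the pooled fit) and 1.13e-05 for *Csf2* (6.55e-22). Of the named genes, 1 no longer passed the adjusted p in that fit and 8 newly passed. In the PD0325901 group each of the 6 libraries was closest to the one numbered 3 apart from it, at 1 h and likewise at 0.5 h. Averaging these pairs to 3 values gave the same numbers of called genes, but it leaves the differences unchanged, so the counts say little about the pairs. The adjusted p-values did change. With averaging, 10 of the 150 named genes no longer passed and 0 newly passed, and that of *Il10* went from 5.58e-05 to 0.00208. The untreated libraries 4 to 6 and 7 to 9 also differed from each other, and for many but not all of the named genes the values against each set of 3 are given. Ribosomal RNA (*Rn45s*) was high in 4 of the 12 libraries (untreated 4, 6 and 7 and PD0325901 number 2), and without these 4 libraries 39 genes were called lower and 34 higher. Of 9 macrophage markers, such as *Adgre1*, *Csf1r* and *Cd68*, 9 were expressed and 0 were called, and their summed level was 18.80 to 18.92 with PD0325901 and 18.75 to 18.92 without, on the deposited log2 scale. All 6 libraries with PD0325901 for 40 or 70 min and no LPS carried neural mRNAs such as *Fabp7*, which was at 7.54 to 8.20 at 70 min and 7.07 to 8.13 at 40 min and at most at 3.28 in the 12 libraries compared and in the DMSO, 10 min and untreated ones without LPS. Responses to LPS measured against the 70 min libraries are therefore also given against the DMSO libraries.

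Of 11971 genes tested, 49 were lower and 39 higher with PD0325901 at 1 h of LPS, at an adjusted p under 0.05 and a difference of at least 1 on the deposited log2 scale. These are 0.409% and 0.326% of the genes tested, and the median difference over all genes was -0.01. Against untreated libraries 4 to 6 alone the counts were 79 and 42, and against 7 to 9 alone 37 and 49. How the values were transformed before deposit was not stated, and differences are therefore log2 differences as deposited, and a fold change read from them depends on that scale. Among genes whose libraries did not overlap, the largest decreases were of *Egr1*, *Egr3* and *Csf2*, and the largest increase was that of *Ifnb1*. The libraries of both groups did not overlap for 45 of the 49 lower genes, the exceptions being *Adam19*, *Adamts4*, *Eif3j1* and *Malat1*, and for 39 of the 39 higher genes; non-overlap was found for 17.9% of all genes tested.

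Promoter sequence is shown for 5 of these genes, chosen because each holds a recognizable site for a factor that is relevant to the question, with that site in capitals. The sequences are from RefSeq promoters (build GRCm38.p6), on the strand of the gene, 5′ to 3′. The stretch of *Nr4a1* (chr15:101266681-101266766, plus strand, -165 to -80 from the start site) has the ETS-type core CCGGAA, and that of *Dusp5* (chr19:53529023-53529122, plus strand, -122 to -23) has a pair of adjoining CArG boxes, the motif that SRF binds. *Btg2* (chr1:134079274-134079361, minus strand, -206 to -119) has the cyclic AMP response element TGACGTCA, and *Lif* (chr11:4257318-4257386, plus strand, -250 to -182) has the AP-1 element TGACTCA. *Ifnb1* (chr4:88522861-88522993, minus strand, -199 to -67) has 3 copies of AANNGAAA, the core that interferon regulatory factors bind, and 1 NF-κB element (GGGA, any 2 bases, then TTCC).
Nr4a1: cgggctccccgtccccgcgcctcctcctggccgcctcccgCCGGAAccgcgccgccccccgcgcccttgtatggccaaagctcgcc
Dusp5: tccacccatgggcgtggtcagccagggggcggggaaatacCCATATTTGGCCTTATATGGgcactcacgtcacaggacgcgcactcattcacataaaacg
Btg2: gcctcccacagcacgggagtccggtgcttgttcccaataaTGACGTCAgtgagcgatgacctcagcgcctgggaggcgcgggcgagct
Lif: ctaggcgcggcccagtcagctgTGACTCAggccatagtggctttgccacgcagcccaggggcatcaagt
Ifnb1: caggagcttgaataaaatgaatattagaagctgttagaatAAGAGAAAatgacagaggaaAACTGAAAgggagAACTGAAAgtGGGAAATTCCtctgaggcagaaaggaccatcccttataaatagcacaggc

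Both strands of the 250 bases before the start were searched for these letters in the 9215 tested genes that had a RefSeq promoter, which include 27 of the 49 lower and 33 of the 39 higher genes. The CArG box was present in 1.27% of the tested genes and in 1 of the 27 (*Dusp5*). CCGGAA was present in 26.2% of tested genes and in 4 of the 27, TGACTCA in 4.08% and in 3 of the 27 (*Adam19*, *Il1a*, *Lif*), and TGACGTCA in 3.17% and in 2 of the 27 (*Btg2*, *Errfi1*). Among the 33 higher genes, the NF-κB element was found in 3 (*Cxcl10*, *Ifit2*, *Ifnb1*) against 1.51% of tested genes, and AANNGAAA in 12, or 36.4%, against 19.1%. AANNGAAA was also present in 8 of the 27 lower genes, or 29.6%. In the other direction, CCGGAA was found in 5, TGACTCA in 2 and the CArG box and TGACGTCA in 0 of the 33 higher genes, and the NF-κB element in 0 of the 27 lower ones. These matches describe the sequence only.

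Immediate early transcription factors held the largest decreases. *Egr1* (chr18:34861207-34864956), a zinc finger factor that is a textbook target of the ternary complex factors, was at 11.19, 11.36 and 11.62 (lowest, median and highest of 6) with LPS alone and at 7.01, 7.15 and 7.36 with PD0325901. The lowest untreated library was far above the highest treated one. The difference was -4.22 ± 0.14 (SE, limma, adjusted p = 7.29e-46), and it was -4.26 against untreated libraries 4 to 6 and -4.18 against 7 to 9. Without LPS, DMSO-treated and untreated cells differed by -0.17 in *Egr1* (adjusted p = 0.529). In untreated cells 1 h of LPS raised *Egr1* by 3.41. With PD0325901 the level after LPS exceeded that of the 70 min drug control by 0.28, which did not pass the test (adjusted p = 0.203). The direction turned against the DMSO libraries, with the level after LPS differing from theirs by -0.64 (adjusted p = 0.00165).

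*Egr3* (chr14:70077317-70082613), a related factor, ranged from 9.79 to 10.21 with a median of 10.04 in untreated cells, and from 7.53 to 7.72 with a median of 7.58 in treated cells. The groups were separate, and the difference was -2.42 ± 0.13 (adjusted p = 6.45e-29). *Nr4a1* (chr15:101253902-101274795), an orphan nuclear receptor whose promoter stretch is shown above, was at 10.48, 10.60 and 11.11 without the inhibitor and at 8.72, 8.92 and 9.02 with it. Again no treated library reached an untreated one, and the difference was -1.79 ± 0.18 (adjusted p = 2.03e-14); the offset without LPS was -0.45 (adjusted p = 0.131). The other called members of the list were *Ier3* (-1.58 ± 0.09), a regulator of apoptosis, and *Ier2* (-1.15 ± 0.08). Of the 19 tested genes on the list, 12 were lower and 2 higher at an adjusted p under 0.05, against 19.3% and 16.4% of all genes tested, and the list median was -0.35 beside -0.01 over all genes. Decrease was not shared by the whole list: for *Nr4a1*'s homologs *Nr4a2* and *Nr4a3* the differences were -0.17 and 0.15, and for *Egr2* it was -0.05, none of which passed the test. *Nr4a3* differed by -0.14 against untreated libraries 4 to 6 and by 0.45 against 7 to 9.

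Among AP-1 genes the largest decreases were of *Fosb*, *Fosl1* and *Fos*, which are members of the FOS family. *Fosb* was at 8.06, 8.46 and 9.0 in untreated cells and at 6.58, 6.63 and 6.69 with PD0325901. The treated values lay within a narrow band below all untreated ones, with a difference of -1.83 ± 0.12 (adjusted p = 2.99e-25). LPS raised *Fosb* by 1.84 in untreated cells, and with the inhibitor the level after LPS was 0.09 above its 70 min drug control (adjusted p = 0.637) and 0.07 above DMSO (adjusted p = 0.733). *Fos* itself was at 11.17, 11.55 and 11.85 against 10.02, 10.07 and 10.25, a difference of -1.44 ± 0.11 (adjusted p = 6.13e-21). *Fosl1*, which encodes FRA-1, was at 4.57, 5.12 and 5.78 against 2.91, 3.58 and 3.99, and the difference was -1.54 ± 0.13 (adjusted p = 4.05e-17). Its difference depended on the untreated set and was -1.14 against libraries 4 to 6 and -1.93 against 7 to 9. The other AP-1 genes moved less. *Junb* differed by -0.52 and the FOS family member *Fosl2* by -0.42, both past the adjusted p, and *Jun* differed by -0.30 (adjusted p = 0.000657) with overlapping libraries, and by -0.16 against untreated libraries 4 to 6 (adjusted p = 0.14). *Atf3*, a repressor of inflammatory genes, was 0.38 higher. In all, 9 of 12 AP-1 genes tested were lower and 1 higher by adjusted p, against 19.3% and 16.4% of all genes tested, and the median was -0.38.

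**Figure D1:**
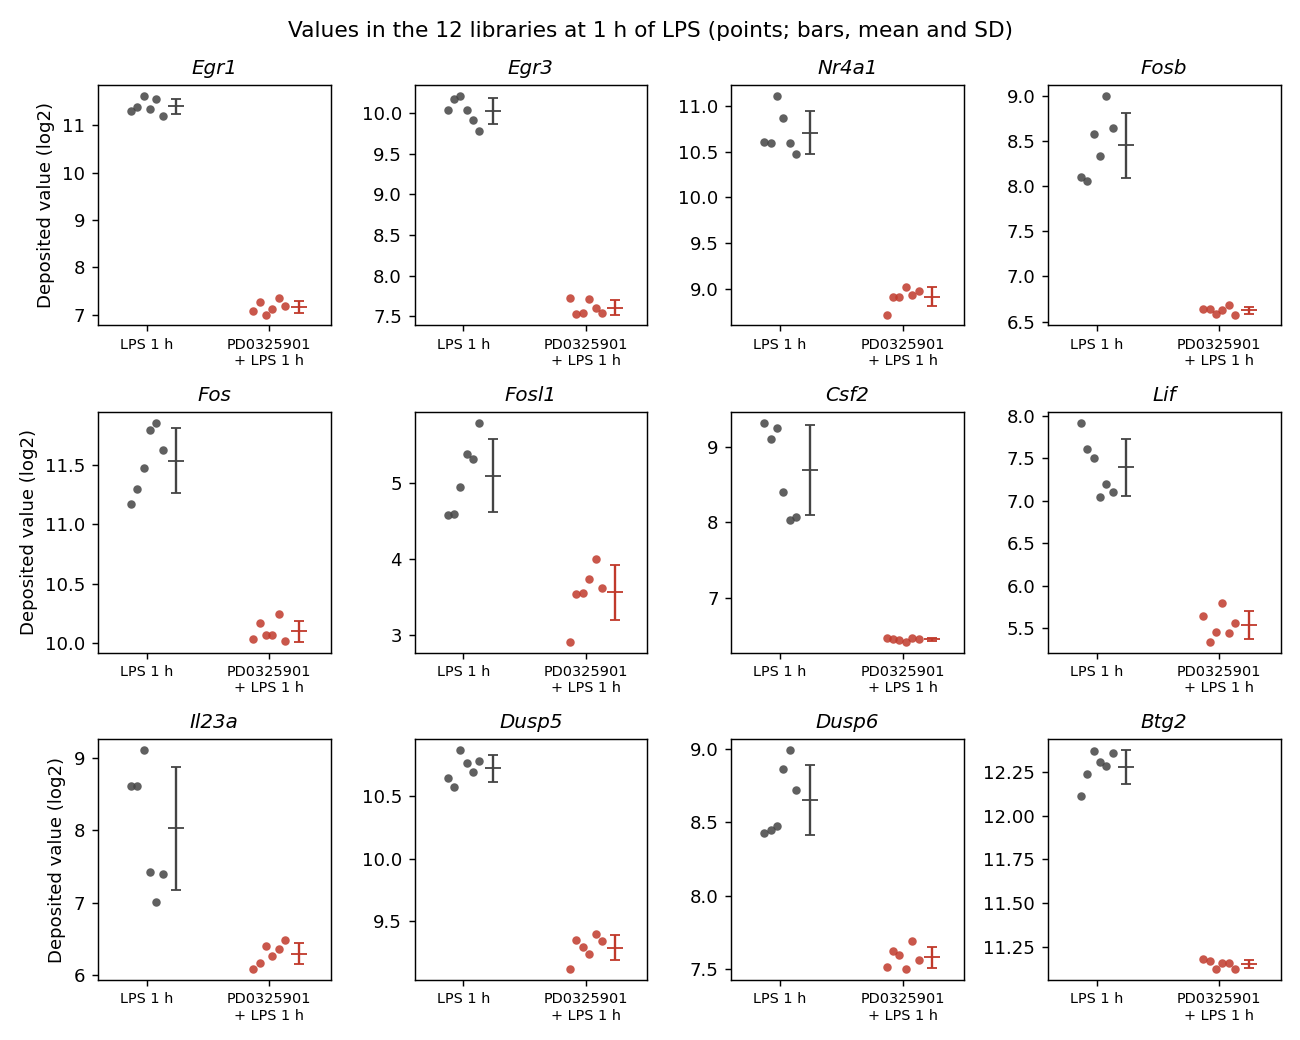
Deposited log2 values (y axis, a separate scale in each panel that does not start at 0) of 12 genes in the 6 libraries with LPS for 1 h (grey points) and the 6 with PD0325901 before LPS (red points), with bars for the mean and SD. In each panel the groups are separate; *Egr1* lies at 11.19 to 11.62 without and at 7.01 to 7.36 with the inhibitor.

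Genes that restrain ERK1/2 signaling were the next group. *Dusp5* (chr19:53529145-53541809), a nuclear phosphatase that acts on ERK1/2, was at 10.57, 10.73 and 10.87 with LPS alone and at 9.12, 9.32 and 9.40 with PD0325901. The groups were separate and differed by -1.43 ± 0.14 (adjusted p = 4.04e-14), with an offset between the experiments of -0.53 without LPS (adjusted p = 0.0211). *Dusp2*, another nuclear phosphatase of the family, differed by -1.21, and *Errfi1*, an inhibitor of the EGF receptor, by -1.38. *Spry2* fell by 0.63 on the log2 scale, and *Dusp4* differed by -0.12 (adjusted p = 0.209), or by -0.33 against untreated libraries 4 to 6 and 0.10 against 7 to 9. Of the 16 tested feedback inhibitors 4 were called lower, against 0.409% of all genes, and 11 were lower and 2 higher by adjusted p, against 19.3% and 16.4%. Their median was -0.43. *Dusp10*, a phosphatase for p38 and JNK rather than ERK1/2, was among those higher, by 0.54. The kinases of the pathway moved little: for 18 of 18 tested, *Map3k8* and *Map2k1* among them, the difference stayed within -0.15 to 0.12, with 2 lower and 2 higher by adjusted p.

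Some ERK1/2 target genes were already lower in the drug libraries without LPS. After 70 min of PD0325901, 13 genes were lower (0.109% of those tested) and 30 higher (0.251%) than in DMSO, the neural mRNAs among the latter. The DMSO libraries were taken at 10 min, so the drug and the longer time in culture cannot be told apart here. In this contrast *Dusp6*, a cytoplasmic ERK1/2 phosphatase, was lower by 2.09 on the log2 scale, *Rgs1*, a regulator of G protein signaling, by 1.89, *Myc* by 1.76, *Fos* by 1.67, *Dusp4* by 1.21 and *Phlda1* by 1.05. *Egr3* was called lower in it as well, and how its LPS response depends on the baseline is given below. After 10 min of drug, *Fos* differed from DMSO by -0.04 and *Dusp6* by -0.01. Of the 49 genes lower with PD0325901 after LPS, *Dusp6* was the only 1 that was also called lower after 1 h of LPS in untreated cells. In untreated cells 1 h of LPS lowered it by 1.28, in treated cells the level after LPS differed from the 70 min drug control by -0.03 (adjusted p = 0.865) and from DMSO by -2.12, and the groups after LPS were at 8.42, 8.60 and 8.99 against 7.5, 7.58 and 7.69, a difference of -1.07 ± 0.09 (adjusted p = 3.47e-19). That difference was -0.87 against untreated libraries 4 to 6, short of a call, and -1.27 against 7 to 9. *Myc* was raised by LPS by 1.76 in untreated cells. With the drug its rise was 2.98 against the 70 min libraries and 1.22 against DMSO, so whether it was larger or smaller than in untreated cells turned with the baseline. *Myc* ended 0.47 lower with PD0325901. *Rgs1* ended 0.29 higher.

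**Figure D2:**
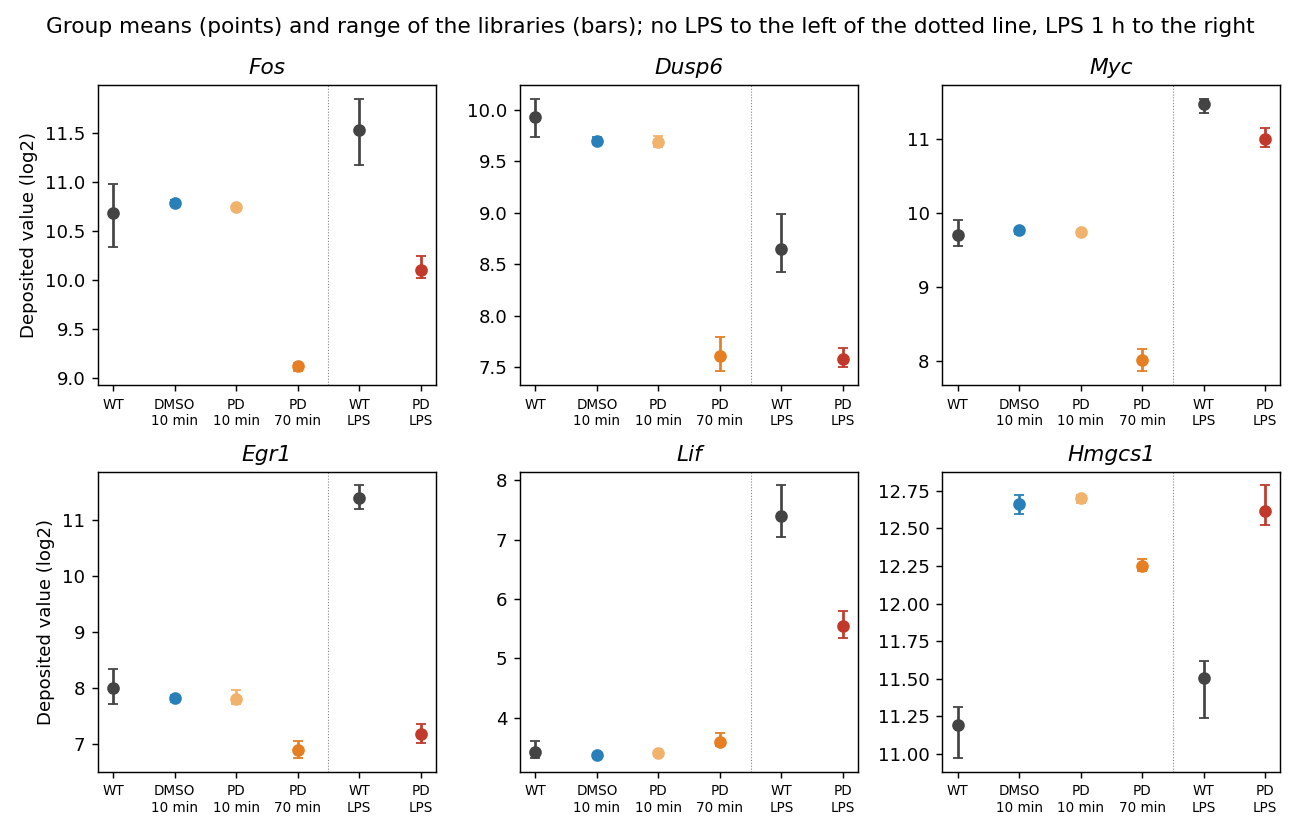
Group means (points) and the range of the libraries (bars) of 6 genes on the deposited log2 scale, without LPS to the left of the dotted line (untreated WT, DMSO 10 min, PD0325901 10 min and 70 min) and with LPS for 1 h to the right (untreated, PD0325901). *Fos*, *Dusp6* and *Myc* are lower after 70 min of drug alone, by 1.67, 2.09 and 1.76 against DMSO; *Hmgcs1* is higher in the DMSO libraries than in untreated cells by 1.47.

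Cytokine genes formed the second large group of decreases. *Csf2* (chr11:54247270-54249899), which encodes GM-CSF, was at 8.03, 8.75 and 9.31 in untreated cells and at 6.42, 6.46 and 6.47 with PD0325901. All treated libraries were lower, and the untreated ones fell into higher values in libraries 4 to 6 and lower values in 7 to 9. The difference was -2.24 ± 0.16 (adjusted p = 6.55e-22), or -2.76 against the former and -1.72 against the latter. *Lif* (chr11:4257568-4272514), a cytokine of the IL-6 family, was at 7.05, 7.35 and 7.92 against 5.34, 5.51 and 5.80. Here too the groups were separate, with a difference of -1.85 ± 0.12 (adjusted p = 1.92e-24). *Il23a*, the p19 subunit of IL-23, was at 7.01, 8.02 and 9.11 against 6.09, 6.31 and 6.48, and the difference of -1.73 ± 0.16 (adjusted p = 1.59e-15) was -2.48 against untreated libraries 4 to 6 and -0.98 against 7 to 9.

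The interleukin-1 genes were lower as well. *Il1a* differed by -1.34 ± 0.15 (adjusted p = 3.49e-12) and *Il1b* by -1.03 ± 0.14 (adjusted p = 1.28e-09), the latter being -0.74 against untreated libraries 7 to 9. *Hbegf*, an EGF receptor ligand, differed by -1.43 ± 0.16 and *Vegfa*, the vascular growth factor, by -1.62 ± 0.16, but for *Vegfa* an offset of -0.90 was present without LPS. *Il10* (chr1:131019845-131024970), the anti-inflammatory cytokine, was at 9.46, 9.76 and 10.18 against 8.68, 8.81 and 9.03. Its groups were separate and its difference of -0.95 ± 0.20 (adjusted p = 5.58e-05) was just short of the size required for a call, which it reached against untreated libraries 4 to 6 (-1.07) and not against 7 to 9 (-0.83).

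*Tnf*, *Il6* and *Il12b* moved little or not in one direction. *Tnf* differed by -0.22 (adjusted p = 0.0243), and by -0.14 against untreated libraries 7 to 9 (adjusted p = 0.291). For *Il6* the difference was -0.08 ± 0.19 (adjusted p = 0.766), made of -0.75 against untreated libraries 4 to 6 and 0.58 against 7 to 9. *Il12b*, the p40 subunit shared by IL-12 and IL-23, behaved likewise, with 0.15 ± 0.22 overall (adjusted p = 0.606), -0.83 against the first set and 1.14 against the second. Across the list of cytokines and growth factors, 7 of 20 tested genes were called lower and 0 higher (0.409% and 0.326% of all genes), and 13 were lower and 1 higher by adjusted p (19.3% and 16.4% of all genes). The median was -0.44.

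The remaining lists showed which neighbouring programs moved. Of 16 chemokine genes tested, 1 was called lower (*Ccl22*, -1.24) and 1 higher (*Cxcl10*, 1.24), 5 were lower and 5 higher by adjusted p, and the median was -0.03. Over all genes the shares were 0.409% and 0.326% called, and 19.3% lower and 16.4% higher by adjusted p, and these stand behind the counts of the lists that follow. Those lower included the neutrophil attractants *Cxcl3* (-1.0) and *Cxcl1* (-0.58), and those higher included *Ccl5* (0.76) and *Ccl4* (0.67). Against untreated libraries 4 to 6 and 7 to 9 in turn, the difference was -1.52 and -0.95 for *Ccl22*, -1.34 and -0.65 for *Cxcl3*, 0.997 and 1.48 for *Cxcl10*, and 0.34 (adjusted p = 0.23) and 1.18 for *Ccl5*. Of the 16 chemokine genes, 3 were higher and 1 lower by adjusted p in DMSO-treated against untreated cells without LPS. With that offset subtracted, 0 were higher (0.710% of all genes), 2 were lower (2.21%) and the median was 0.01. With the 70 min drug libraries as the baseline instead, 4 were higher and 2 lower. NF-κB subunits and feedback genes had 0 of 17 called, 8 lower and 0 higher by adjusted p, a median of -0.11 and their largest difference in *Nfkbid* (-0.67, or -0.87 against untreated libraries 4 to 6 and -0.47 against 7 to 9). *Tnfaip3* and *Nfkb1*, which are induced by NF-κB, differed by -0.11 and -0.09 and did not pass. Among mRNA decay factors, *Btg2* (chr1:134074865-134079155), an antiproliferative protein that recruits deadenylases, was at 12.11, 12.29 and 12.37 against 11.13, 11.16 and 11.18, a difference of -1.12 ± 0.07 (adjusted p = 3.61e-26) with separate groups. *Zfp36*, which encodes tristetraprolin and promotes decay of cytokine mRNAs, was lower by 0.59 on the log2 scale, and 8 of 10 decay factors were lower and 0 higher by adjusted p.

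Receptors, proteases and lipid mediators were also examined. *Gpr84*, a receptor for medium-chain fatty acids, was called lower (-1.06), and the receptors *Adora2b* (-0.95) and *Ccrl2* (0.72) moved in opposite directions, *Ccrl2* by 0.43 against untreated libraries 4 to 6 and by 1.02 against 7 to 9. *Plat*, tissue plasminogen activator, was lower by 1.35 on the log2 scale, while of 9 plasminogen and matrix genes on the list 5 were lower and 1 higher by adjusted p and 0 were called, with *Plaur* at -0.52 and *Serpinb2* at -0.66. *Plat* differed by -1.88 against untreated libraries 4 to 6 and by -0.81, short of a call, against 7 to 9, and *Serpinb2* by -1.03 and -0.29 (adjusted p = 0.16 in the latter). *Ptgs2*, which encodes cyclooxygenase 2, differed by -0.31 ± 0.16 and did not pass (adjusted p = 0.13), with -0.53 against untreated libraries 4 to 6 (adjusted p = 0.033) and -0.09 against 7 to 9. *Kdm6b*, a histone demethylase, was called lower (-1.25), as was *Mex3b*, an RNA-binding protein (-1.51, or -1.84 against untreated libraries 4 to 6 and -1.17 against 7 to 9). CREB target genes had 7 of 10 lower by adjusted p and a median of -0.43, with the called members *Nr4a1* and *Fos* already counted above. Their median offset in DMSO-treated against untreated cells was -0.16. With the offset subtracted, 2 of the 10 were lower (2.21% of all genes) and the median was -0.18. Cytoskeletal genes controlled by SRF with its MRTF cofactors had a median of 0.02 and 0 of 12 called, ETS factors a median of -0.08 and 0 of 13 called, and BCL2 family genes -0.01 and 0 of 14 called. Housekeeping genes had a median of 0.08, with 3 lower and 5 higher of 12 by adjusted p.

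**Figure D3:**
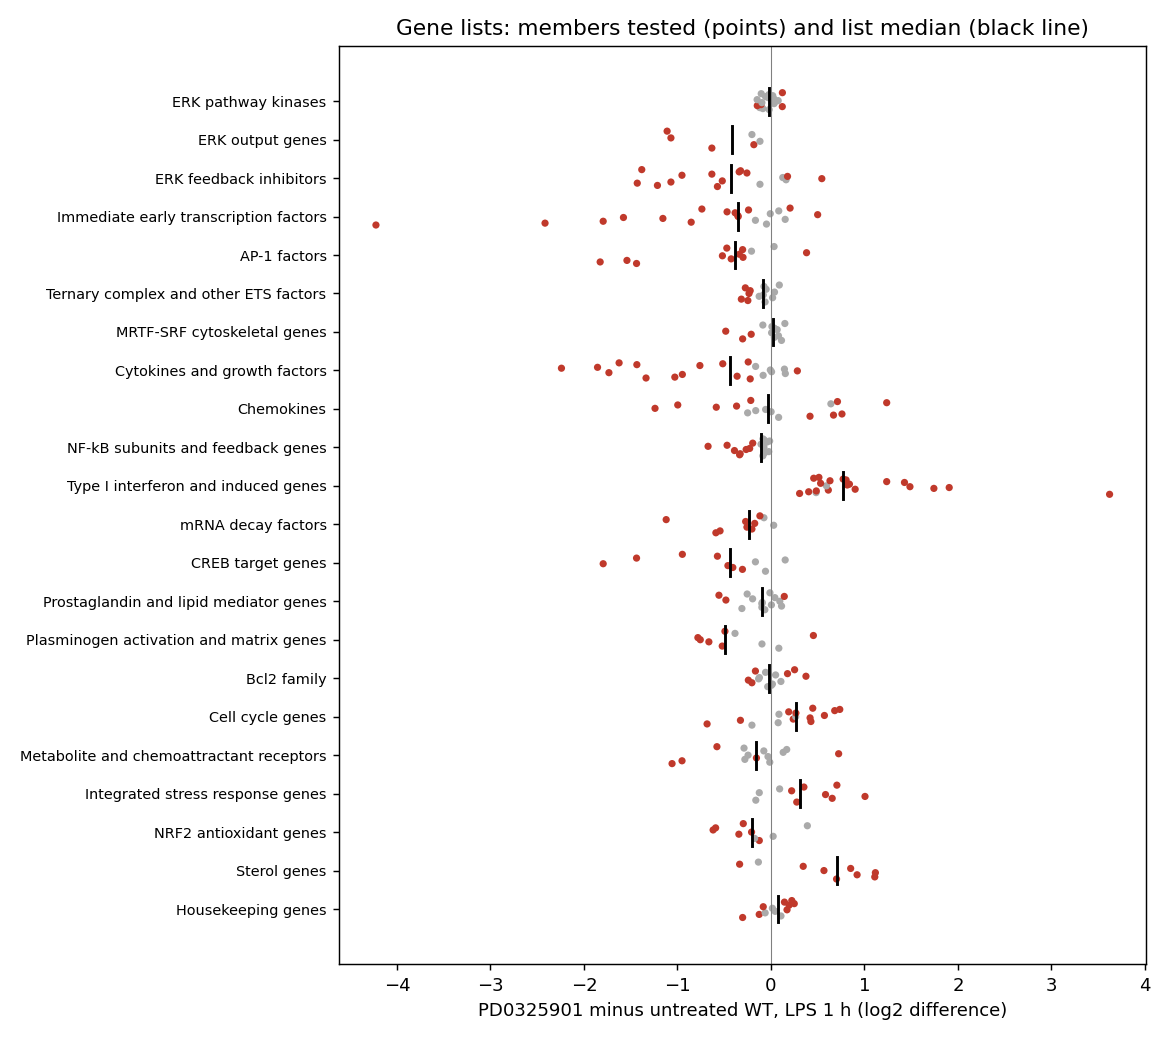
Differences between PD0325901 and untreated cells at 1 h of LPS (x axis, log2 difference as deposited) for the tested members of 22 gene lists (y axis); red points passed an adjusted p under 0.05, grey points did not, and black lines are list medians. The median was -0.44 for cytokines and growth factors, -0.35 for immediate early transcription factors and 0.77 for type I interferon and induced genes.

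Type I interferon mRNA was higher with PD0325901. *Ifnb1* (chr4:88522025-88522794), which encodes interferon β, was at 7.51, 7.94 and 8.40 with LPS alone and at 10.82, 11.09 and 12.80 with the inhibitor. Every treated library was above every untreated one, and PD0325901 libraries 1 and 4, which resemble each other across the well-expressed genes, stood apart at 12.80 and 12.65. The difference was 3.62 ± 0.25 (adjusted p = 3.78e-23) and 3.05 with those libraries left out. It was 3.38 against untreated libraries 4 to 6 and 3.86 against 7 to 9. DMSO-treated and untreated cells without LPS differed by 0.11 (adjusted p = 0.84). LPS raised *Ifnb1* by 3.34 in untreated cells and, with the drug, by 6.69 against the 70 min libraries and 6.85 against DMSO, and in untreated cells the median at 2 h was 8.31.

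The interferon α genes had low levels. *Ifna2* was at 1.42, 1.56 and 1.66 against 3.05, 3.17 and 3.57, a difference of 1.69 ± 0.15, and *Ifna5* differed by 1.47 ± 0.13. Of 12 interferon α genes in the table, these 2 passed the filter on low values (10 on the linear scale in 3 or more libraries). They passed it through groups in which they were high, in the comparison only in PD0325901 libraries 1 and 4, so their calls are a description. With a filter of 10 in at least 6 of the 12 libraries both were left out, and 37 genes were called higher in place of 39. Members of this family are near-identical, so how reads were divided among them is uncertain.

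Interferon-induced genes were higher too, but they were also higher in this experiment without LPS. *Ifit2* was at 11.19, 11.39 and 11.85 against 12.96, 13.19 and 13.89, a difference of 1.91 ± 0.28 (adjusted p = 2.54e-08), while the DMSO libraries exceeded untreated cells by 1.45 in the absence of LPS. For *Ifit1* the difference was 1.74 and the offset 1.01, for *Ifit3* 1.49 and 1.39, and for *Cxcl10* 1.24 and 0.90. On the list of type I interferon and induced genes, 6 of 21 were called higher and 0 lower, 19 were higher by adjusted p, and the median was 0.77, beside a median offset of 0.81 in DMSO against untreated cells. With the offset subtracted, the median was -0.07, and *Ifnb1* was the only member of the 21 that was then higher at an adjusted p under 0.05, which 0.710% of all genes were.

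**Figure D4:**
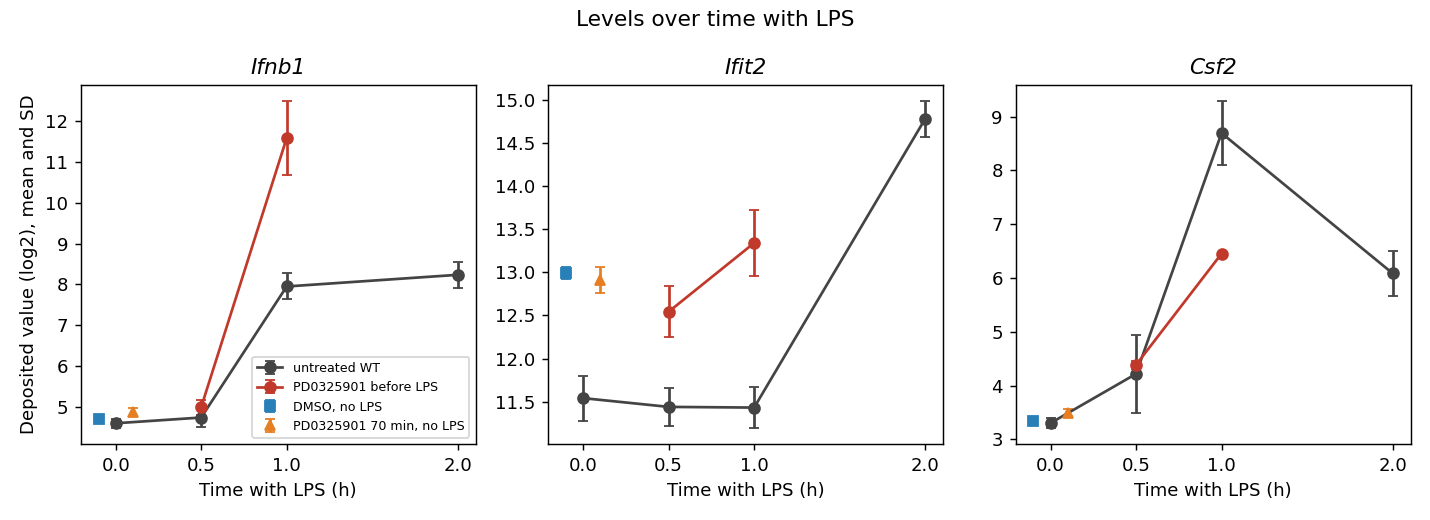
Mean deposited log2 value (y axis, a separate scale in each panel; bars, SD) of *Ifnb1*, *Ifit2* and *Csf2* against time with LPS in hours (x axis), in untreated WT cells (grey) and with PD0325901 before LPS (red), with the DMSO libraries (blue square) and 70 min of PD0325901 without LPS (orange triangle) drawn beside time 0. At 1 h *Ifnb1* is 3.62 higher and *Csf2* is 2.24 lower with the inhibitor, and *Ifit2* in the DMSO libraries is 1.45 above untreated cells.

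The offset between the experiments was then set against each called gene. DMSO-treated cells had 12 genes lower (0.100% of those tested) and 34 higher (0.284%) than untreated cells without LPS. Of the 39 genes higher with PD0325901 at 1 h, 23 (59.0%) were among those 34 (67.6% of them), and the median offset of the 39 was 1.1. They included *Hmgcs1* (1.11 with LPS, offset 1.47) and *Idi1* (1.12, offset 1.2), enzymes of sterol synthesis, the fatty acid desaturase *Scd1* (1.54, offset 1.49), and the neutrophil granule genes *Ngp* (1.82, offset 1.41) and *Ltf* (1.74, offset 1.56). The summed level of 9 neutrophil markers was 8.30 to 8.84 with PD0325901 and LPS, 6.51 to 7.80 with LPS alone, 7.59 to 8.28 with DMSO and 6.47 to 7.26 in untreated cells without LPS, and the defining markers *Ly6g*, *Mpo* and *Elane* did not pass the filter on low values. In bulk RNA, more cells of a type and more RNA per cell cannot be told apart. The higher genes with an offset smaller than 0.5 in size were 7: *Ifnb1*, *Ifna2*, *Ifna5*, *Htr2a* (a serotonin receptor, 1.38), *Edn1* (endothelin 1, 1.02), *Chac1* (a glutathione-degrading enzyme, 1.01) and *Rhov*. For *Ifna2* and *Ifna5* a small offset was fixed in advance, since both were very low without LPS. Their medians in DMSO-treated and untreated cells were 1.46 and 1.45 for *Ifna2* and 1.48 and 1.47 for *Ifna5*. *Edn1* differed by 0.59 against untreated libraries 4 to 6, short of a call, and by 1.46 against 7 to 9, and *Idi1* and *Chac1* were short of a call against 7 to 9 (0.96 and 0.97). In the same order of sets the difference was 1.05 and 1.72 for *Htr2a*, 2.39 and 1.25 for *Ngp*, and 2.15 and 1.32 for *Ltf*.

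Among the 49 lower genes the share was smaller. In DMSO-treated cells 7 (14.3%) were also lower than in untreated cells without LPS, which was 58.3% of the 12: *As3mt*, *Bmp2*, *Gdf3*, *H2-Q9*, *Lrrc17*, *Prex2* and *Sorbs3*. *Sorbs3*, an adaptor of focal adhesions, differed by -1.35 with LPS and by -1.32 without, and *H2-Q9*, a class Ib MHC gene with near-identical copies, by -1.09 and -1.47. With LPS, neither reached a difference of 1 against untreated libraries 7 to 9 alone (-0.82 and -0.75). For 32 of the 49 (65.3%) the offset was smaller than 0.5 in size, as it was for 96.0% of all genes, and these 32 include *Egr1*, *Egr3*, *Nr4a1*, *Fos*, *Fosb*, *Fosl1*, *Csf2*, *Lif*, *Il23a*, *Il1a*, *Dusp6* and *Btg2*. *Eif3j1*, which has a near-identical copy in the genome, had the second largest difference in size among the lower genes (-3.98 ± 1.18, adjusted p = 0.00538), but its untreated libraries ran from 3.42 to 9.43 and overlapped the treated ones.

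**Figure D5:**
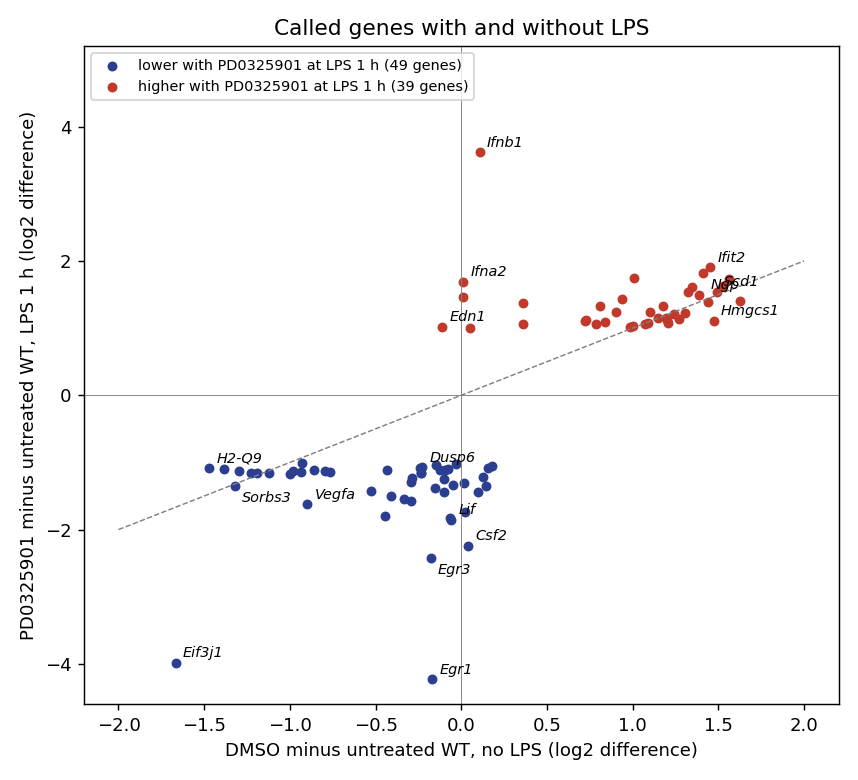
Difference between PD0325901 and untreated cells at 1 h of LPS (y axis) against the difference between DMSO and untreated cells without LPS (x axis), both log2 differences as deposited, for the 49 genes called lower (blue) and the 39 called higher (red); the dashed line marks equal values. *Egr1*, *Csf2* and *Ifnb1* lie near 0 on the x axis (-0.17, 0.04 and 0.11), while *Hmgcs1*, *Ifit2* and *Sorbs3* lie near the line.

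Whether the response to LPS differed was tested as a difference of differences, which subtracts an offset that is equal with and without LPS. With the 70 min drug libraries as the baseline, 57 genes (0.476% of those tested) had a smaller and 12 (0.100%) a larger response, the neural mRNAs of that baseline among the former. With the DMSO libraries in their place, the counts were 26 (0.217%) and 6 (0.0501%). In that order of baselines, the difference was -3.13 and -4.05 for *Egr1*, -1.19 and -2.24 for *Egr3*, -1.74 and -1.76 for *Fosb*, -2.44 and -2.28 for *Csf2*, -2.02 and -1.80 for *Lif*, and 3.35 and 3.52 for *Ifnb1*. *Fos* gave 0.13 (adjusted p = 0.847) and -1.54 (adjusted p = 1.74e-11), and *Dusp6* gave 1.25 and -0.84, since both were lower after 70 min of drug alone. *Plat*, which was 1.14 higher in the 70 min libraries than in DMSO, gave -2.63 and -1.49. For *Il10* the adjusted p was 0.145 and 0.0949, and for *Vegfa* 0.214 and 0.118, so neither passed with either baseline. *Edn1*, a higher gene, gave 0.95 and 1.13.

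At 0.5 h of LPS, 23 genes (0.192%) were lower and 26 (0.217%) higher with PD0325901, in libraries other than those at 1 h. Of the 49 lower genes at 1 h, 21 (42.9%) were among those 23 (91.3% of them), and of the 39 higher genes 25 (64.1%) were among those 26 (96.2%). Both times compare the same pair of experiments, and 21 of these 25 higher genes, all but *F10*, *Itgb7*, *Pianp* and *S100a8*, and 6 of the 21 lower ones were also called in that direction in DMSO-treated against untreated cells without LPS. Of 19 immediate early factors tested, 5 were called lower at 0.5 h. By adjusted p, 10 were lower and 1 higher, against 15.0% and 14.5% of all genes tested at that time. The difference at 0.5 h was -4.48 for *Egr1*, -2.10 for *Egr3*, -1.74 for *Nr4a1*, -1.95 for *Fosb* and -1.35 for *Fos*. The change of the difference from 0.5 h to 1 h was tested directly and called for 9 genes that became lower (0.0752% of those tested) and 3 that became higher (0.0251%). The former included *Csf2*, with its difference at 0.17 at 0.5 h (adjusted p = 0.458) and a change of -2.41 (adjusted p = 7.41e-14), *Il23a* with a change of -1.49, *Lif* -1.33, *Plat* -1.21, *Fosl1* -1.16, *Errfi1* -1.14 and *Il1a* -1.08. The latter were *Ifnb1*, whose difference at 0.5 h was 0.25 (adjusted p = 0.47) and whose change was 3.37 (adjusted p = 3.57e-12), *Ifna2* (1.71) and *Ifna5* (1.48), both low as given above. Of the 49 lower genes, 17 (34.7%) were raised by LPS within 0.5 h in untreated cells and 22 (44.9%) at 2 h, against 0.618% and 7.71% of the genes tested.

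PD0325901 was compared directly with loss of TPL-2 kinase activity and with RSK inhibition at 1 h of LPS. The Map3k8 D270A libraries belong to the same experiment as the untreated ones, so the offset enters this comparison too. Relative to Map3k8 D270A cells, 16 genes were lower (0.134%) and 38 higher (0.317%) with PD0325901. *Egr1* was 0.98 lower on the log2 scale with PD0325901 than in Map3k8 D270A cells (adjusted p = 3.12e-08), *Egr3* 0.73 lower and *Nr4a1* 0.72 lower. *Lif* and *Il23a* differed by 0.12 (adjusted p = 0.441) and 0.08 (adjusted p = 0.734). *Ptgs2* was 0.81 higher with PD0325901 (adjusted p = 3.82e-05), *Serpinb2*, a plasminogen activator inhibitor, 1.04 higher (adjusted p = 1.09e-09), and *Ifnb1* 2.37 higher (adjusted p = 2.06e-13). Set beside the untreated cells, Map3k8 D270A cells differed by -3.24 in *Egr1*, by -1.12 in *Ptgs2* and by 1.25 in *Ifnb1*. Against RSKi47, PD0325901 gave 117 genes lower (0.977%) and 60 higher (0.501%), with differences of -5.23 in *Egr1*, -2.18 in *Nr4a1*, -1.64 in *Fos*, 0.17 in *Csf2* and -0.12 in *Il23a*. The labels give the RSKi47 libraries an experiment of their own, so that inhibitor and experiment cannot be told apart here. Of the 5 fibroblast markers 2 were tested and both were called lower with PD0325901 (*Col1a1* -1.86, *Col1a2* -2.13), the summed level of the 5 being 3.95 to 4.80 with PD0325901 and 5.08 to 7.32 with RSKi47. *Cd79b*, a subunit of the B cell receptor, was called higher (1.05). The part of these genes in the result was not tested.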

How the data were processed

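Single-end, strand-specific RNA-seq libraries were aligned and quantified by the authors with STAR 2.5.1b and RSEM 1.2.29 against mm10 RefSeq genes, and normalized with DESeq2 1.10.1, per the submitters' processing notes. The deposited table holds 1 normalized log2 value for each of 18098 genes in 119 libraries (-2.40 to 19.8). Read totals were not used here, so depth is unknown and no counting interval is given. A single value above 25, of a gene in an RSKi47 library, was set missing. Libraries were grouped by their labels. Genes that reached 10 on the linear scale in 3 or more libraries (11971) were tested with limma 3.58.1 (R 4.3.3) in 1 fit of all libraries, with 1 mean per group, 94 residual degrees of freedom and Benjamini-Hochberg adjustment, after tests on simulated data. Genes were called at an adjusted p under 0.05 and a difference of at least 1. A gene list was described by its counts and median, without a test. The text names genes by a rule (the 12 largest non-overlapping changes each way, up to 4 passing and 2 non-passing members per list, and 11 genes of the study's own assays), and *Il1a*, *Il1b*, *Tnf*, *Il6*, *Kdm6b*, *Hbegf*, *Ier2*, *Myc*, *Rgs1*, *Plat*, *Edn1*, *Htr2a*, *Eif3j1*, *H2-Q9* and *Sorbs3* were chosen after their values were seen, as were a few other list members and genes named to complete a count. Members and lists were chosen with earlier results of these data known. Alternatives were other scalings, filters, thresholds, control sets, baselines, a replicate block and leaving out each library.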

Additional observations from a re-analysis of the deposited data

Results flagged for a closer look

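In groups of 6, a library was far from the other 5 in 13 of 300 gene and group combinations examined, where chance gives about 1 in 20. With PD0325901 these were *Nr4a1* in library 1 (8.72, low), *Nfkbid* in library 1 (10.92, low), *Braf* in library 1 (9.43, high), *Cxcl3* in library 2 (7.04, low), *Bak1* in library 3 (10.99, low), *Thbs1* in library 3 (9.71, high), *Nfkb2* in library 4 (12.42, high), *Elk3* in library 5 (10.51, high) and *Kdm6b* in library 5 (11.05, high). In untreated cells they were *Rgs1* in library 4 (13.15, low), *Hmgcs1* in library 6 (11.24, low), *Ifit3* in library 8 (11.03, high) and *Mknk2* in library 9 (11.71, low).

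For 10 named genes the difference between PD0325901 and untreated cells changed from 0.5 h to 1 h of LPS by a direct test. It became lower for *Csf2* (-2.41), *Il23a* (-1.49), *Lif* (-1.33), *Plat* (-1.21), *Fosl1* (-1.16), *Errfi1* (-1.14) and *Il1a* (-1.08), and higher for *Ifnb1* (3.37), *Ifna2* (1.71) and *Ifna5* (1.48). *Ifna2* and *Ifna5* passed the filter on low values through groups in which they were high, so their changes are a description only.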

How the results depend on the processing

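The counts of 49 lower and 39 higher genes became 120 and 108 at a threshold of the natural logarithm of 2, 194 and 176 at 1.5-fold, and 2309 and 1959 with the adjusted p alone. Against untreated libraries 4 to 6 only, 79 were lower, and against 7 to 9 only, 37. Leaving out each library in turn gave 43 to 57 lower (the lowest without untreated library 4) and 35 to 40 higher. Replicate numbers 4, 5 and 6 are shared by both groups but do not pair them (correlations of deviations 0.13, -0.06 and 0.18), and a fit with the replicate number as a block called 73 lower and 40 higher. For the difference of differences (57 and 12), the DMSO baseline gave 26 and 6, the 10 min PD0325901 baseline 25 lower, the logarithm threshold 110 and 25, and leaving out libraries 51 to 61 and 11 to 14. For the change from 0.5 h to 1 h (9 and 3), the logarithm threshold gave 24 and 9, and leaving out libraries 6 (without the untreated 0.5 h library 5) to 12 (without the untreated 1 h library 7) lower and 3 to 5 higher (5 without the untreated 1 h library 6). The cause of these shifts was not tested beyond the looser thresholds themselves. Leaving out the 4 libraries of high *Rn45s* (39 and 34) and PD0325901 libraries 1 and 4 (53 and 38) were alternatives chosen after seeing the data.

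Of 3598 values of the 150 named genes under 24 alternatives, 3372 kept their direction and their side of the adjusted p threshold. A further 107 kept their direction but no longer passed, and 43 kept it and newly passed. In 71 values of 24 genes, the sign changed between a reported difference of at most 0.39 in size and an alternative, neither of which passed that threshold. A sign change in which at least 1 of the values passed was found in 5, namely *Il12b* (-0.81 with the replicate block and -0.83 against untreated libraries 4 to 6), *Bcl2l11* (-0.14 against 4 to 6), *Bcl2a1b* (0.0861 against 7 to 9) and *Il6* (0.58 against 7 to 9). Without read totals, the precision of low values such as those of *Ifna2* and *Fosl1* is known only from the spread between libraries.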

Other observations

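Several gene groups outside the ERK1/2 and interferon programs also had members that differed between the PD0325901 and untreated libraries at 1 h of LPS. Integrated stress response genes are induced when translation initiation is limited. Of 10 tested, 7 were higher and 0 lower by adjusted p, with a median of 0.31. For DMSO against untreated cells without LPS the median was 0.04, with 3 higher and 1 lower (12.5% and 11.1% of all genes). As a difference of differences the median was 0.02 with the 70 min baseline, where 0 passed. With the DMSO baseline it was 0.14, with 2 higher (0.710% of all genes) and 0 lower. NRF2 antioxidant genes had 6 of 9 lower and 0 higher and a median of -0.21, with a median of -0.29 in the comparison without LPS. Cell cycle genes had 2 of 15 lower and 9 higher and a median of 0.27, with 0.29 without LPS, and sterol genes had 1 of 9 lower and 7 higher and a median of 0.70, with 0.74 without LPS. By adjusted p, 19.3% of all genes tested were lower and 16.4% higher with LPS. The median over all genes tested was -0.01 with LPS and -0.0024 without.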
